A study of Mus musculus with 7 samples.

Results

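The genes that write, copy, read and remove DNA methylation were examined in mouse hematopoietic stem cells (HSCs) with and without deletion of Dek, which encodes a chromatin-binding protein. Rows of the expression table were taken by gene symbol, which gave 9 of 33298 genes: the methyltransferases Dnmt1, Dnmt3a and Dnmt3b, the replication-coupled partner Uhrf1, the reader Mbd2, the dioxygenases Tet1, Tet2 and Tet3, and the glycosylase Tdg. None of the 9 differed between the groups beyond the spread between libraries. Within the controls the highest library stood from 3.58-fold (Tet3) to 69.1-fold (Tdg) above the lowest, with Mbd2 left out for a value of 0. A range of single libraries and a difference of group means are unlike measures, so they are not set against each other.

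About 800 HSCs per library (lacking lineage markers and CD48, with Sca-1, c-Kit and CD150 on the surface) were sorted from the bone marrow of mice aged 12 weeks, and polyadenylated RNA was amplified with a low-input kit and sequenced. Dek_fl, the control with 4 libraries, is Dek fl/fl without a recombinase. Dek_cKO, called the cKO libraries and 3 in number, is Dek fl/fl with Tie2-Cre, which acts in endothelial as well as hematopoietic cells. Both groups carry the floxed alleles and Cre is present in Dek_cKO alone, so deletion of Dek and presence of Cre cannot be told apart.

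As background, DNMT1 copies methyl marks onto the new strand at replication, and UHRF1 guides it there by binding hemimethylated CpG. DNMT3A and DNMT3B set marks on unmethylated DNA. TET enzymes oxidise 5-methylcytosine, and TDG excises the more oxidised forms so that base excision repair can restore cytosine, while MBD2 binds methylated CpG and recruits the NuRD corepressor complex. In mouse HSCs, loss of Dnmt3a favours self-renewal over differentiation and loss of Tet2 expands the stem cell compartment.

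Dnmt1 and Uhrf1 act together at the replication fork, and stretches of their promoters are shown because these 2 of the 8 genes with a RefSeq promoter window in GRCm38.p6 share an E2F-type run of letters. The Dnmt1 stretch lies at chr9:20952809-20952868 on the minus strand and the Uhrf1 stretch at chr17:56304102-56304161 on the plus strand. Both are written 5′ to 3′, and capitals mark TTTCGCGC or its reverse complement GCGCGAAA.
Dnmt1: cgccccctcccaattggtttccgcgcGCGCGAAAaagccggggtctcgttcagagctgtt
Uhrf1: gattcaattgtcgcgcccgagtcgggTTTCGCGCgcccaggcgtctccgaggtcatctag

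The run begins 219 bases before the RefSeq start of Dnmt1 and 185 before that of Uhrf1. Searched on both strands from 250 bases before to 50 after each start, it is held by 101 of 27025 genes (0.374%). The run was chosen after the sequences were seen, and each of these genes also has a start whose window does not hold it. The match is a description of letters and not evidence of binding.

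Library totals recovered from the values ran from 4209152 reads in Dek_fl replicate 1 to 26951515 in Dek_fl replicate 3, and genes above 0 from 8575 in Dek_fl replicate 4 to 19950 in Dek_fl replicate 3. Over tested genes, Pearson's r between libraries averaged 0.541 for pairs of 1 group and 0.553 for pairs of both; this r is taken across genes, and genes are not independent samples. As deposited, Dek was lower in every library labelled Dek_cKO, with means of 91.0 ± 51.1 FPKM over the 4 controls and 10.22 ± 2.195 over the 3 Dek_cKO libraries (SD; exact permutation test, two-sided, p = 0.0571, smallest possible 0.0286). FPKM are fragments scaled to transcript length and to library size. The Dek value in Dek_cKO replicate 3, 12.66 FPKM, comes to 405.8 reads, which is not whole. Of the values checked in that library, 93.9% were whole. Multiplying by 10 would make the Dek value whole but is not the only factor that does, and the cause was not tested. With that factor the value would be 126.6 FPKM, above 3 of the 4 controls. The Dek_cKO mean would be 48.2 ± 67.9 (SD, n = 3), with p = 0.314 by the exact two-sided permutation test. In that case the library labelled Dek_cKO replicate 3 would not show loss of Dek. Of 16 HSC markers, 14 passed the filter on low values, while Slamf1, which encodes the sort marker CD150, did not exceed 1.80 FPKM. At an unadjusted p under 0.05, 0 of the 14 were higher and 1 lower, Gata2, a transcription factor of HSCs. Over all 10260 tested genes, 3.94% passed that threshold and 4.94% had groups without overlap. Gata2 stood between 31.5 and 123.7 FPKM in Dek_fl and between 7.52 and 18.3 in Dek_cKO without overlap, at a log2 fold change of -2.56 (SE 0.935; limma, unadjusted p = 0.0126, adjusted p = 0.9999), and its values in Dek_cKO replicates 1 and 3 are not whole reads. Cd48, whose protein the sort selects against, stood between 4.10 and 206.0 FPKM in Dek_fl and between 7.82 and 135.1 in Dek_cKO. Granulocyte and monocyte markers, 12 genes, summed to 832 to 2464 FPKM in Dek_fl and to 592, 1183 and 9995 in Dek_cKO replicates 1 to 3. Dek_cKO replicate 3 stood apart in this sum. Its largest values there were Elane, which encodes neutrophil elastase, at 5393 FPKM, Prtn3 at 2019 and Mpo at 1542. Not every marker of the list was highest in that library, and Lyz2 was at 243.7 FPKM there against 350.6 in Dek_cKO replicate 1. The part of these cells in the results was not tested. Other marker lists also had a library that stood apart. Megakaryocyte markers, 7 genes, summed to 1325 FPKM in Dek_fl replicate 4, with Pf4 at 1055, against 196.9 to 454.8 in the other libraries. Endothelium and stroma markers, 9 genes, summed to 99.5 FPKM in Dek_cKO replicate 2, against 12.9 to 39.9 in the other libraries. The part of these in the results was not tested. In bulk RNA, fewer cells of a type and less RNA per cell cannot be told apart.

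The maintenance methyltransferase Dnmt1, ENSMUSG00000004099 on chromosome 9 (20907209 to 20959888 of GRCm38, minus strand), was at 38.9, 11.1, 14.9 and 44.8 FPKM in Dek_fl replicates 1 to 4. In Dek_cKO replicates 1 to 3 it was at 19.2, 37.7 and 26.4 FPKM. All 3 Dek_cKO values lie within the control range, and the means were 27.4 ± 16.9 (SD, n = 4) and 27.8 ± 9.31 (SD, n = 3). Dnmt1 exceeded Dnmt3a and each of the Tet genes in all 7 libraries, and no other member did so. Its log2 fold change, on the log2(FPKM + 1) scale as all that follow, was 0.19 (SE 1.03, 95% interval -1.97 to 2.35).

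Of the de novo methyltransferases, Dnmt3a on chromosome 12 (3806007 to 3914443, plus strand) was at 7.38, 3.54, 1.85 and 10.9 FPKM in the controls and at 13.3, 2.47 and 4.28 in the cKO libraries. Dek_cKO replicate 1 stood above every control and the others within their range. The log2 fold change was 0.095 (SE 1.27, 95% interval -2.56 to 2.75).

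Dnmt3b on chromosome 2 (153649450 to 153687730, plus strand) was at 2.25, 22.1, 29.3 and 2.82 FPKM in the controls and at 73.0, 15.4 and 18.2 in the cKO libraries. The controls fell apart into a low and a high pair, with Dek_fl replicates 1 and 4 low, and Dek_cKO replicate 1 stood above all other libraries. Its log2 fold change of 1.57 (SE 1.27, 95% interval -1.07 to 4.21) was larger than that of the other members and did not pass (limma, unadjusted p = 0.230). It ranged from 0.88 to 2.12 as each library was left out. By voom on recovered reads, which does not use the log2(FPKM + 1) scale, it was 0.62, below Tdg (1.81) and Mbd2 (1.42). Its place among the members thus depended on the method. Dnmt3b exceeded Dnmt3a in 5 of 7 libraries and was below it in Dek_fl replicates 1 and 4, so the order of these paralogs depended on the library.

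Uhrf1, which encodes the ubiquitin ligase that brings DNMT1 to hemimethylated sites, on chromosome 17 (56303321 to 56323486, plus strand), had the highest mean of the 9. It was at 46.4, 30.3, 53.0 and 4.01 FPKM in the controls and at 29.99, 21.2 and 60.3 in the cKO libraries. Dek_fl replicate 4 was low and the other libraries lay between 21.2 and 60.3, while Dnmt1 was at its highest in that same library. The log2 fold change was 0.47 (SE 1.08, 95% interval -1.78 to 2.72), and -0.31 without Dek_fl replicate 4. The summed FPKM of 32 S phase genes, as background to a gene raised at replication, was also lowest in Dek_fl replicate 4, at 809 against 1390 to 1901 in the other libraries. Not every gene of that list was low there, and the library also had the fewest genes above 0, 8575. The part of detection in the sum was not tested.

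Mbd2, the methyl-CpG reader on chromosome 18 (70568189 to 70626131, plus strand), was at 38.7, 10.4, 4.20 and 0 FPKM in the controls and at 1.38, 38.9 and 14.5 in the cKO libraries. The highest values of the 2 groups, in Dek_fl replicate 1 and Dek_cKO replicate 2, were nearly equal. In Dek_fl replicate 4 it was listed at 0, where 3 reads would be 0.340 FPKM. The log2 fold change was 0.71 (SE 1.46, 95% interval -2.35 to 3.76), and -0.22 without Dek_fl replicate 4.

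**Figure D1:**
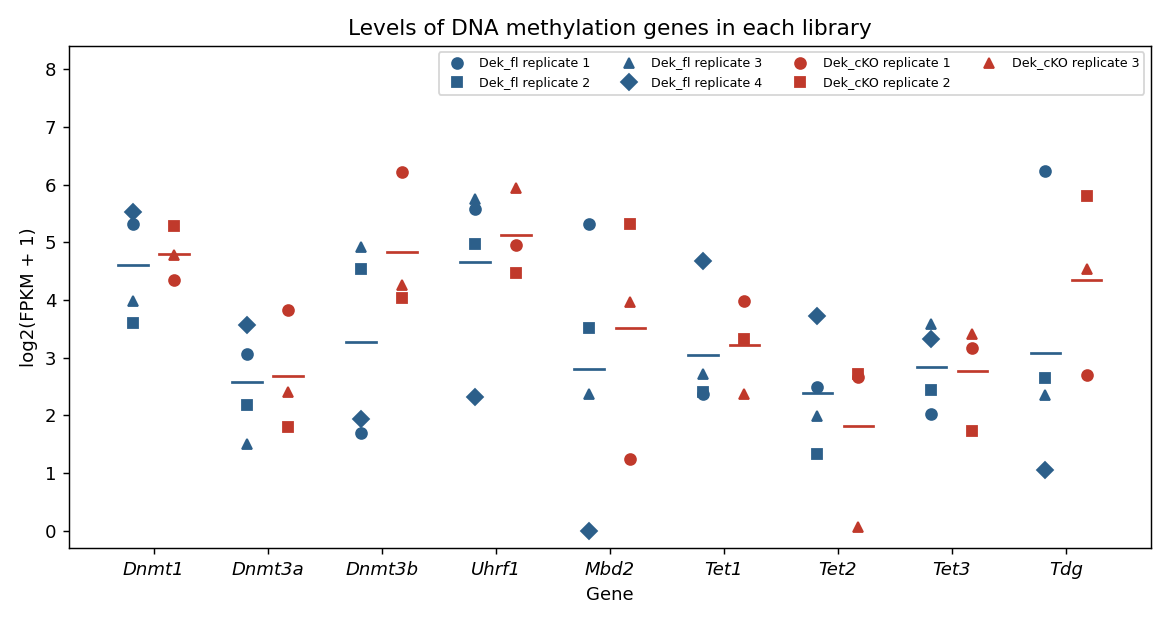
Each point is the log2(FPKM + 1) of a gene in 1 library, blue for Dek_fl (n = 4) and red for Dek_cKO (n = 3), with marker shape for the replicate and bars for group means. The 2 groups overlap for each gene, and the spread is widest for Mbd2 and Tdg.

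Among the erasers, Tet1 on chromosome 10 (62804570 to 62908996, minus strand) was at 4.18, 4.29, 5.56 and 24.6 FPKM in the controls and at 14.7, 8.99 and 4.20 in the cKO libraries. In the controls Dek_fl replicate 4 stood far above the others, and all Dek_cKO values lay within the control range. The log2 fold change was 0.18 (SE 1.27, 95% interval -2.46 to 2.82).

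Tet2 on chromosome 3 (133463679 to 133545139, minus strand) was at 4.66, 1.53, 2.98 and 12.1 FPKM in the controls and at 5.33, 5.57 and 0.0434 in the cKO libraries. The value in Dek_cKO replicate 3 rests on 5 reads, with a 95% Poisson interval of 0.0141 to 0.101 FPKM, in a library of 12540431 reads. The same library had the highest sum of granulocyte and monocyte markers (9995 FPKM), whose part in this value was not tested. The log2 fold change was -0.57 (SE 1.28, 95% interval -3.24 to 2.09), and 0.30 without Dek_cKO replicate 3.

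Tet3 on chromosome 6 (83362373 to 83459084, minus strand) was at 3.05, 4.42, 10.9 and 9.03 FPKM in the controls and at 7.998, 2.32 and 9.61 in the cKO libraries. The groups spanned nearly the same range. The log2 fold change was -0.070 (SE 1.26, 95% interval -2.69 to 2.55), with a positive sign after quantile normalization (0.040), with array weights (0.071) and without some libraries.

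Tdg, which excises oxidised methylcytosine, on chromosome 10 (82629828 to 82650799, plus strand), was at 74.1, 5.27, 4.13 and 1.07 FPKM in the controls and at 5.47, 54.6 and 22.3 in the cKO libraries. Dek_fl replicate 1 was the highest of all libraries, and the other controls were lower than every Dek_cKO library. Without Dek_fl replicate 1 the groups no longer overlapped, as in 922 of the 10260 tested genes (8.99%) with that library left out, and the log2 fold change moved from 1.27 (SE 1.39, 95% interval -1.63 to 4.17) to 2.32 (limma, adjusted p = 0.99999, unadjusted p = 0.122). Tdg also has near-identical processed pseudogenes, so reads may have been shared. Gm9855, 99.2% identical over 1194 bases, reached 21.6 FPKM in Dek_fl replicate 3, where Tdg was at 4.13, and Tdg-ps, 98.7% identical over 2968 bases, reached 1.02. Glt8d2 overlaps the end of Tdg on the opposite strand, with 367 bases in common, and was highest, at 7.22 FPKM, in Dek_fl replicate 1, where Tdg was also highest. Whether the counting used strand is not stated. The copies of Uhrf1 (Gm5648) and the paralog of Dnmt3b (Dnmt3c) that share long stretches did not exceed 0.201 and 0.302 FPKM. The pseudogene Dnmt3a-ps1, 89.2% identical over 766 bases, reached 1.78 FPKM in Dek_cKO replicate 2, where Dnmt3a was at 2.47. In Dek_fl replicate 1, 5430434F05Rik, on the strand of Tet3 and overlapping it, was at 19.2 FPKM and Tet3 at 3.05. Gm48353, likewise overlapping Tet1, was at 5.84 there and Tet1 at 4.18. Their part in the member values was not tested.

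All 63 member values were whole numbers of reads at the longest annotated transcript of each gene, within 0.003 reads plus rounding. Of these, 59 rested on at least 40 reads, and the median was 520 reads. The median counting error of the values above 0 was 4.35%. The highest library stood from 4.03-fold (Dnmt1) to 279.8-fold (Tet2) above the lowest, with Mbd2 left out for its value of 0. A counting error and a ratio of extreme libraries are unlike measures. The ratio of Tet2 rests on its value of 5 reads in Dek_cKO replicate 3, whose own counting error was 44.7%. Reads were not tagged by molecule, so Poisson intervals cover counting error only.

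By mean FPKM over the 7 libraries the order was Uhrf1 (35.02 ± 19.5), Dnmt1 (27.6 ± 13.1), Tdg (23.9 ± 29.1), Dnmt3b (23.3 ± 24.0), Mbd2 (15.4 ± 16.7), Tet1 (9.50 ± 7.68), Tet3 (6.77 ± 3.44), Dnmt3a (6.24 ± 4.41) and Tet2 (4.61 ± 3.90; SD, n = 7). Without Dek_fl replicate 1 the mean of Tdg was 15.5, and without Dek_cKO replicate 1 that of Dnmt3b was 15.0. Rescaled to TPM, Dnmt3b (44.9) stood above Tdg (38.4). None of the 8 pairs of neighbours in this order differed by more than 1 SD of their within-library difference. Uhrf1 exceeded Dnmt1 in 5 of 7 libraries, and Tdg exceeded Dnmt3b in 3 of 7. Tdg was the highest member in Dek_fl replicate 1 and Dek_cKO replicate 2, Dnmt1 in Dek_fl replicate 4, Dnmt3b in Dek_cKO replicate 1 and Uhrf1 in the other 3 libraries.

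Writers exceeded erasers in every library when each family was summed. The DNMT sum was 48.6, 36.7, 46.1 and 58.5 FPKM in the controls and 105.5, 55.6 and 48.9 in the cKO libraries. The TET sum was 11.9, 10.2, 19.5 and 45.7 FPKM in the controls and 28.1, 16.9 and 13.8 in the cKO libraries. The ratio of DNMT to TET averaged 2.83 ± 1.26 over the controls (SD, n = 4) and 3.53 ± 0.230 over the cKO libraries (SD, n = 3), with overlap between groups and a low of 1.28 in Dek_fl replicate 4. Mbd2, the single reader, lay between the TET and DNMT sums in Dek_fl replicate 1, Dek_fl replicate 2, Dek_cKO replicate 2 and Dek_cKO replicate 3, and below both in the other 3 libraries.

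The make-up of each family also varied by library. The DNMT sum spanned 2.87-fold over the libraries, and the share of Dnmt3b in it ran from 4.64% in Dek_fl replicate 1 to 69.2% in Dek_cKO replicate 1. Dnmt1 made up 80.2% and 76.6% of the sum in Dek_fl replicates 1 and 4 and 18.2% in Dek_cKO replicate 1. The TET sum spanned 4.47-fold. Within it, Tet1 held 28.6% to 53.7% of the sum, Tet2 0.313% to 39.2% and Tet3 13.8% to 69.4%. No sum or share separated the groups.

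**Figure D2:**
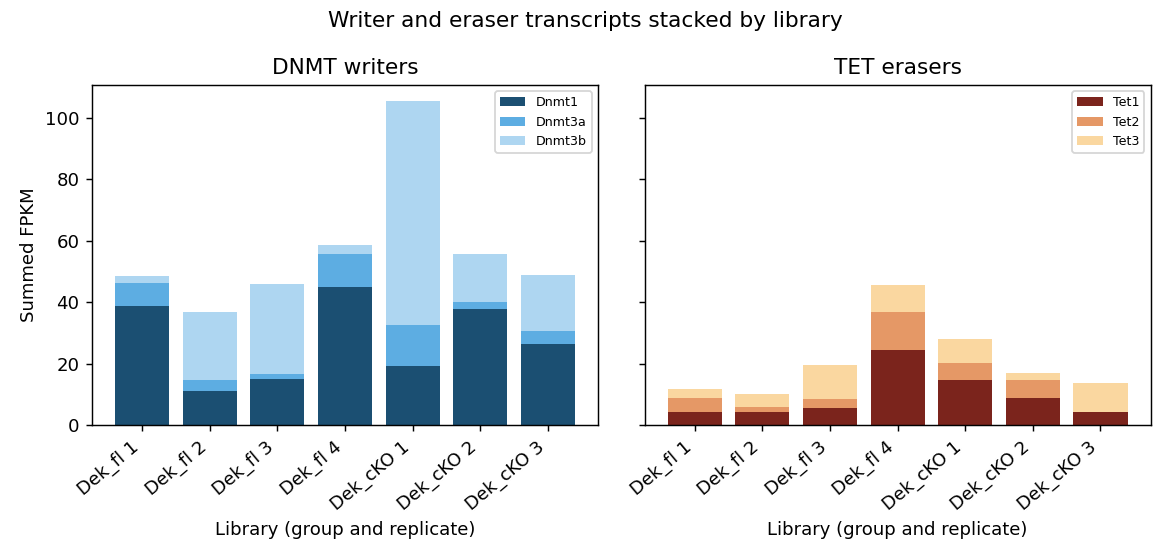
Stacked bars give the FPKM of Dnmt1, Dnmt3a and Dnmt3b (left) and of Tet1, Tet2 and Tet3 (right) in each of the 7 libraries. The DNMT bars are taller than the TET bars in all libraries, and Dnmt3b makes up between 4.64% and 69.2% of the DNMT bar.

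Over the whole table no gene was called by limma. At an adjusted p under 0.05, 0 of 10260 tested genes passed (0%) and 0 of the 9 members. At an unadjusted p under 0.05 the count was 404 genes (3.94%), 218 higher and 186 lower, and again 0 members. The 9 members all passed the filter of at least 1 FPKM in at least 3 libraries. Groups did not overlap in 507 genes (4.94%) and in 0 members. By voom on recovered reads 0 genes passed after adjustment as well, with 327 higher and 232 lower at an unadjusted p under 0.05.

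Of the members, 7 had a positive and 2 a negative log2 fold change, with a median of 0.19 beside 0.053 for all genes tested. Their standard errors ran from 1.03 to 1.46, close to the median of 1.25 over all genes. The smallest adjusted p of a member was 0.9999 by limma. The intervals reach from below -1 to above 2 on the log2 scale for each member, so differences of that size lie within the error, and a missed threshold does not show that the groups were alike.

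**Figure D3:**
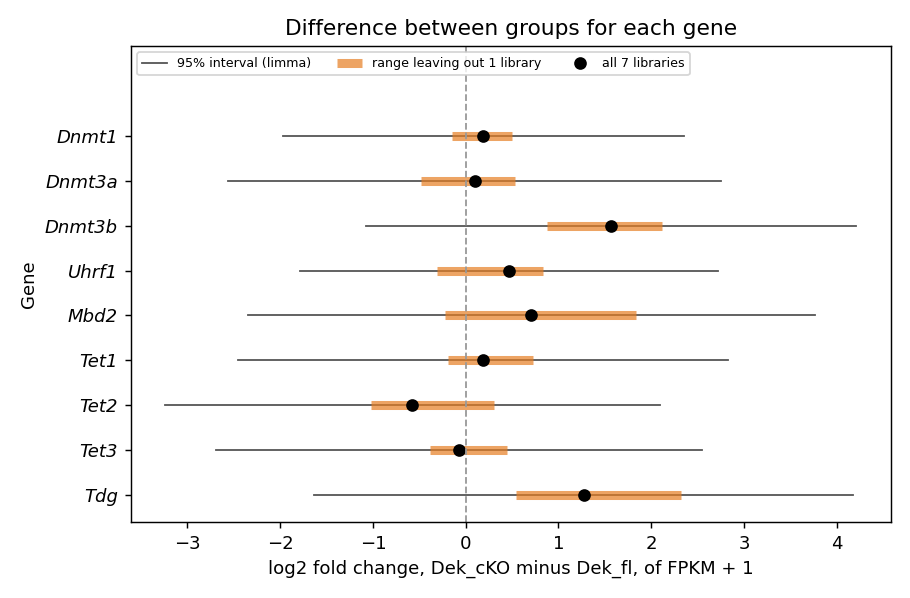
Black points are log2 fold changes of FPKM + 1, Dek_cKO minus Dek_fl, for each gene by limma (n = 4 and 3), thin lines their 95% intervals, and orange bars the range when each library is left out in turn. All intervals cross 0, and the orange bars of Dnmt3b (0.88 to 2.12) and Tdg (0.54 to 2.32) lie above 0.

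The rest of the methylation machinery gave no call either, with 0 members of each list past the adjusted threshold. The list counts below stand beside 3.94% of all tested genes at an unadjusted p under 0.05 and 4.94% without overlap. Among partners and relatives of the DNMTs, 8 of the 11 in the table were tested and 0 passed at an unadjusted p under 0.05, with a median log2 fold change of -0.089. Cdca7, which activates the remodeler HELLS, was at 237.7, 271.1, 229.0 and 91.2 FPKM in the controls and at 87.5, 65.7 and 141.9 in the cKO libraries. Its log2 fold change was -1.03 (SE 0.626). Usp7, a deubiquitinase that binds DNMT1 and UHRF1, had -1.80 (SE 1.20). Dnmt3l, the regulator of DNMT3A in germ cells, did not exceed 0.652 FPKM.

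Of 13 other readers of CpG, 11 were tested and 0 passed at an unadjusted p under 0.05, with a median of 0.022. Mbd1, a methyl-CpG binder, was at 8.85, 15.9, 3.10 and 2.43 FPKM in the controls and at 70.1, 45.0 and 11.7 in the cKO libraries. Its log2 fold change was 2.31 (SE 1.23; limma, unadjusted p = 0.0749). Its Dek_cKO replicate 3 lay within the control range. Ctcf, the insulator protein whose binding is blocked by methylation at some sites, had 1.46 (SE 1.08). Of 12 NuRD subunits, all tested, 0 passed, with a median of 0.086. Hdac2, a deacetylase of the complex, was at 110.3, 131.7, 122.1 and 100.2 FPKM in the controls and at 88.3, 35.8 and 51.5 in the cKO libraries. Its groups did not overlap, at a log2 fold change of -1.07 (SE 0.685). Hdac1, the other deacetylase of the list, had overlapping groups and -0.44 (SE 0.708). The subunit Gatad2a had 1.56 (SE 1.06).

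Among partners and cofactor enzymes of TET, 9 of 12 were tested, and 1 was higher and 0 lower at an unadjusted p under 0.05, with a median of -0.00093. The higher gene was Idh1, an isocitrate dehydrogenase that makes the TET cosubstrate 2-oxoglutarate, at 2.69 (SE 1.25; limma, unadjusted p = 0.0446). Its deposited values in Dek_fl replicates 2 and 3 and Dek_cKO replicate 1 are not whole reads, unlike those of all 9 members. Idh3g had -1.57 (SE 1.19).

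In base excision repair downstream of TDG, 13 of 15 were tested, with 1 higher and 0 lower at an unadjusted p under 0.05 and a median of 0.044. Neil1, a glycosylase that can act after TDG, was listed at 0, 0.113, 0.811 and 0 FPKM in Dek_fl and was at 70.3, 3.34 and 18.9 in Dek_cKO. Groups did not overlap and all 7 values are whole reads, yet the log2 fold change of 3.94 (SE 1.26) did not pass (limma, unadjusted p = 0.00525, adjusted p = 0.9999). Ung, a uracil glycosylase, had 0.98 (SE 0.910).

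Enzymes of the methyl donor cycle, 12 of 14 tested, had 0 higher and 1 lower at an unadjusted p under 0.05, with a median of -0.29. Mtap, which salvages methionine from methylthioadenosine, was at 28.2, 84.9, 84.2 and 70.9 FPKM in the controls and at 0, 0.404 and 31.9 in the cKO libraries. Its log2 fold change was -4.13 (SE 1.29; limma, unadjusted p = 0.00463). Mthfd2, of mitochondrial folate metabolism, had 1.67 (SE 1.49) through Dek_cKO replicate 2 at 122.2 FPKM, against 0 to 6.61 in the other libraries.

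Of 13 germline genes in the table that promoter methylation is known to keep silent in somatic cells, 7 stayed under 1 FPKM in every library, and 1, Ddx4, passed the filter. The other 5 reached 1 FPKM in at least 1 library, with the highest values for Brdt (6.47 FPKM in Dek_fl replicate 3) and Dazl (4.91 in Dek_cKO replicate 3). That value of Dazl is not a whole number of reads. Ddx4 was at 12.6 and 21.6 FPKM in Dek_fl replicates 2 and 3 and at 8.74 in Dek_cKO replicate 3, and listed at 0 in the other 4 libraries. The 3 libraries with signal are the deepest of the series, and the part of depth in this was not tested. The list summed to 0.363 to 28.9 FPKM in Dek_fl and to 2.56 to 15.4 in Dek_cKO.

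S phase genes, 30 of 32 tested, had 1 higher and 1 lower at an unadjusted p under 0.05, with a median of 0.27. These were Rrm2 at 3.78 (SE 1.29), of whose 7 values 4 are not whole reads, and Rfc2 at -1.69 (SE 0.768).

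Some members moved together across libraries. Mbd2 and Tdg were both high in Dek_fl replicate 1 and Dek_cKO replicate 2, next in Dek_cKO replicate 3, and lowest in Dek_fl replicate 4. Ordered by Pearson's r of log2(FPKM + 1) over the 7 libraries, Tdg stood 35th of 10259 genes for Mbd2. Tet1 and Tet2 were both highest in Dek_fl replicate 4, where Uhrf1, Mbd2 and Tdg were lowest. Of the 36 pairs of members, 15 had a positive r. These points share libraries that differ in depth and in genes detected, 7 points leave many genes alike by coincidence, and no test was made.

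**Figure D4:**
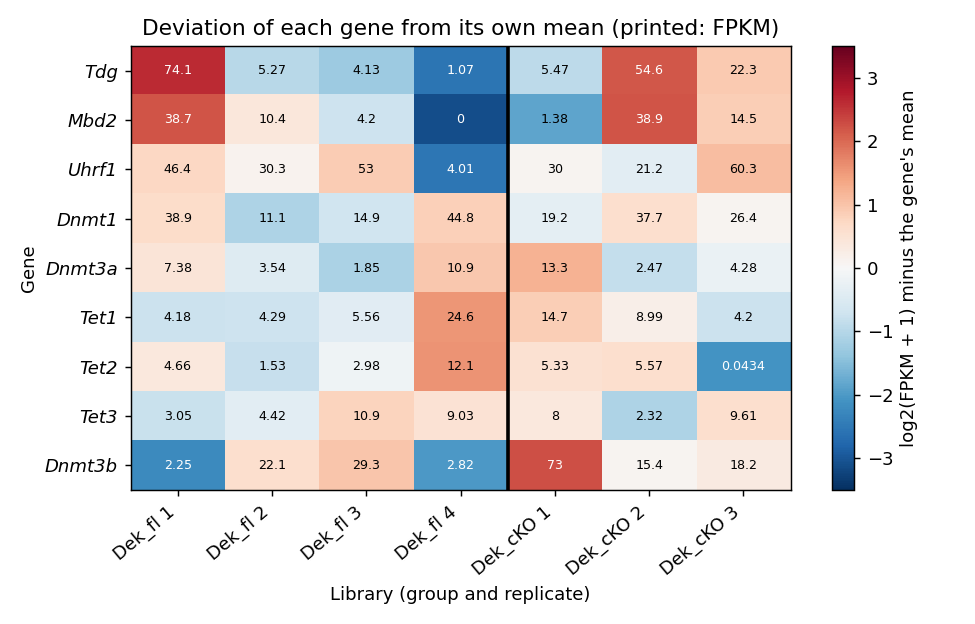
Colours give log2(FPKM + 1) of each gene minus its mean over the 7 libraries, with the FPKM printed in each cell and a line between Dek_fl (left) and Dek_cKO (right). Tdg and Mbd2 are red in Dek_fl replicate 1 and Dek_cKO replicate 2 and blue in Dek_fl replicate 4, where Tet1 and Tet2 are red.

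Among tested genes averaging 10 FPKM or more, the closest profile by r was that of Rpl17 for Dnmt1, Larp4 for Dnmt3a, Ino80c for Dnmt3b, Xpa for Uhrf1, Atg12 for Mbd2, Emc9 for Tet1, Pik3cd for Tet2, Ssbp2 for Tet3 and Cmc2 for Tdg. The next closest were Erg, Fgfr1op2, Rps6kb1, Cept1, Flywch2, Upp1, Satb1, Ldah and Nsd2, in the same order. The values lay between 0.949 and 0.992 over 7 libraries, and no member was the closest profile of another.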

How the data were processed

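The authors deposited FPKM for each of the 7 libraries. The tools named per the submitters' processing notes are HTSeq, Cufflinks 2.1.1 and Bowtie 0.12.9, with the mm10 build. Which step each did, and the annotation, were not given in the sources used here. Triplicates are stated for the series, but 4 libraries are labelled Dek_fl. No label says that libraries came from separate animals, so p-values measure the spread between libraries.

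The 10260 genes that reached 1 FPKM in 3 or more libraries entered limma 3.58.1 (R 4.3.3) as log2(FPKM + 1), with the group alone, trend and robust moderation, and Benjamini-Hochberg adjustment over all of them. Fold changes on this scale understate low genes. Dek was tested by an exact permutation test over 35 splits. The limma step was tested on simulated data. Reads were recovered as FPKM × length × library total, using the longest GENCODE M21 transcript (GRCm38, the assembly of mm10), and copies were found by blastn. Sequences are from RefSeq (8 of 9 members; Mbd2 is not shown).

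The members and lists were chosen with earlier results of these data known. Named genes were the members, the 2 of smallest p per pathway list, and the 2 closest profiles of each member. Marker lists are given as counts or sums, and those of B cells, T and NK cells and erythroid cells are not shown. Dnmt3l, Slamf1, Cd48, Gata2, Elane, Prtn3, Mpo, Lyz2, Pf4, Hdac1, Brdt, Dazl and the copies and overlapping genes of members were added after their values were seen. Alternatives were other pseudocounts (0.1, 0.5), filters (none, 5 FPKM) and scalings (median-of-ratios, quantile, TPM), array weights, plain eBayes, each library left out, and a block for the replicate number. Those chosen after seeing the data were voom on recovered reads and the Dek value multiplied by 10. Counts per library are given with the results.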

Additional observations from a re-analysis of the deposited data

Results flagged for a closer look

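In the 4 Dek_fl libraries 13 measures were examined: the 9 members, Dek, the 2 family sums and their ratio. Of these, 2 had a library far from the other 3 by Dixon's criterion, which chance meets in about 1 of 20 groups of normally distributed values. That rate may not hold here. The gaps were taken on FPKM and not on the log2(FPKM + 1) scale, and the sums and ratio share genes with the members. Tet1 was at 24.6 FPKM in Dek_fl replicate 4, with a gap of 0.932 of the group's range. Tdg was at 74.1 FPKM in Dek_fl replicate 1, with a gap of 0.943 of the range.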

How the results depend on the processing

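No alternative called a gene: the count stayed at 0 under all 18, and no member passed. The DNMT to TET ratio, 3.13 over 7 libraries, lay between 2.97 and 3.44 as each library was left out. Members without overlap numbered 0, and between 0 and 1 as each library was left out, the 1 being Tdg without Dek_fl replicate 1, where 8.99% of all tested genes did not overlap. TPM rescaling moved the mean levels of Dnmt1 (45.6), Dnmt3a (10.7), Tet3 (11.8) and Uhrf1 (60.2) by more than their SD over libraries. FPKM summed to between 484155 and 724098 per library, so this change of unit raises every gene and is not particular to these. The Dek difference of -80.7 FPKM lay between -102.4 and -63.4 with a library left out, and was -42.8 with the Dek_cKO replicate 3 value multiplied by 10.

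Of 162 member fold changes under alternatives, 141 kept their sign and 21 turned. Dnmt3b and Tdg kept theirs in all 18. The other filters and plain eBayes do not alter a fold change, so those signs were fixed in advance. The replicate block repeats the fold changes without Dek_fl replicate 4, so the 18 are not all separate checks. With each library left out in turn the log2 fold change spanned -0.15 to 0.49 for Dnmt1, negative without Dek_cKO replicate 2 and without control replicate 2 or 3. It spanned -0.48 to 0.54 for Dnmt3a (negative without Dek_cKO replicate 1 and without control replicate 2 or 3) and -0.19 to 0.73 for Tet1 (negative without Dek_cKO replicate 1 and without control replicate 1 or 2). For Tet2 it was -1.03 to 0.30, positive without Dek_cKO replicate 3. For Tet3 it was -0.39 to 0.45, positive without Dek_cKO replicate 2 and without control replicate 3 or 4, and 0.040 after quantile normalization and 0.071 with array weights. For Uhrf1 it was -0.31 to 0.83, negative without Dek_fl replicate 4, and for Mbd2 -0.22 to 1.84, negative without Dek_fl replicate 4 or Dek_cKO replicate 2. The cause was not tested.

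Same-numbered libraries deviated from their group means with r of -0.030, -0.073 and 0.045, and libraries did not all correlate best with their own number. Deviations from a mean cancel within each group, so these r cannot decide whether libraries were paired. No label states a pairing. With a replicate block 0 genes were called. Number 4 occurs in Dek_fl alone, so the block takes Dek_fl replicate 4 out of the estimate. Its fold changes, Tet3 0.092, Uhrf1 -0.31 and Mbd2 -0.22, are those without that library and not a separate result. The spread between libraries exceeded counting error; 4 member values rest on under 40 reads.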
